A study of Mus musculus with 18 samples.

Results

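Mouse embryonic fibroblasts (MEFs) grown with 4-hydroxytamoxifen (4-OHT) were compared with MEFs grown without it, gene by gene. The arrays were chosen by their sample titles: 2 arrays of MEFs with 4-OHT, 4-OHT(+), and 2 of MEFs without it, 4-OHT(-), which are 4 of the 18 arrays of the series. Each 4-OHT(+) array was set against the 4-OHT(-) array that carries the same number in its title, which gave 2 pairs, called pair 1 (titles without a number) and pair 2 (titles numbered 2). The series starts from colon tumour cells of the mouse that were reprogrammed to a pluripotent state, and asks how the effects of Apc mutations depend on the kind of cell.

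Both groups of MEFs derive from the cell line #45, a derivative of the reprogrammed line RTC#1, and were grown in DMEM with serum. The 4-OHT(+) MEFs received 2 ug/ml 4-OHT in the medium for 2 days, and the 4-OHT(-) MEFs did not. The labels give neither the Apc alleles of #45, nor any element that 4-OHT switches, nor whether a vehicle was given, nor the embryo's age. All 4 arrays thus come from 1 derivative. No MEF known to lack a 4-OHT-responsive element was used here with the drug. Effects of the compound itself and of anything it may switch thus cannot be told apart. Nothing says that the arrays came from separate cultures, so p-values may measure only technical spread.

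4-OHT is the active metabolite of tamoxifen, a ligand of the oestrogen receptor that is widely used to switch on proteins fused to that receptor's ligand-binding domain. Apc is a scaffold of the complex that marks beta-catenin for destruction, and its loss raises transcription of Wnt target genes such as Axin2 in many cell types. Cells make cholesterol from acetyl-CoA by way of mevalonate and squalene. The genes of that route are switched on together by the transcription factor SREBP2, with the factor NF-Y at nearby CCAAT boxes, when sterol in the endoplasmic reticulum is low. Fibroblasts are the main makers of collagens, elastic fibres and the small proteoglycans that bind them.

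In MEFs with 4-OHT, genes of sterol and fatty acid synthesis were higher than in MEFs without it, and most collagens and other genes of the extracellular matrix were lower. Single genes that fell included the Wnt antagonists Sfrp2 and Sfrp4 and the insulin-like growth factor (IGF) binding proteins Igfbp3 and Igfbp5. Of 11603 genes tested, 54 (0.465%) rose and 94 (0.810%) fell in 4-OHT(+) MEFs at an adjusted p under 0.05 (limma with the pair as a block). The calls in each gene list below are to be read against these shares. Idi1, an enzyme of the mevalonate route, was 3.12-fold higher, and Lum, which encodes the collagen-binding proteoglycan lumican, was 2.25-fold lower. Without the pair as a block, 0 genes passed in limma and 519 had an unadjusted p under 0.05. Every call below thus rests on treating same-numbered arrays as pairs. Centring each array on its median gave 79 rises and 81 falls, an even split (49.4% higher), against 36.5% higher here.

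Direction by itself was common: 3833 of the tested genes (33%) were higher in both pairs and 3713 (32.0%) lower in both. The groups did not overlap, with both 4-OHT(+) arrays above both 4-OHT(-) arrays, for 2076 genes (17.9%), and the reverse held for 1724 (14.9%). A change of at least 1.5-fold in the same direction in both pairs was found for 43 genes upwards and 66 downwards, and 1 gene moved that far in opposite directions. At least 2-fold in both pairs was reached by 7 genes upwards and 8 downwards. The pairs also differed from each other: 336 genes were over 2-fold apart between the 4-OHT(+) arrays and 392 between the 4-OHT(-) arrays, against 56 within pair 1 and 45 within pair 2.

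**Figure D1:**
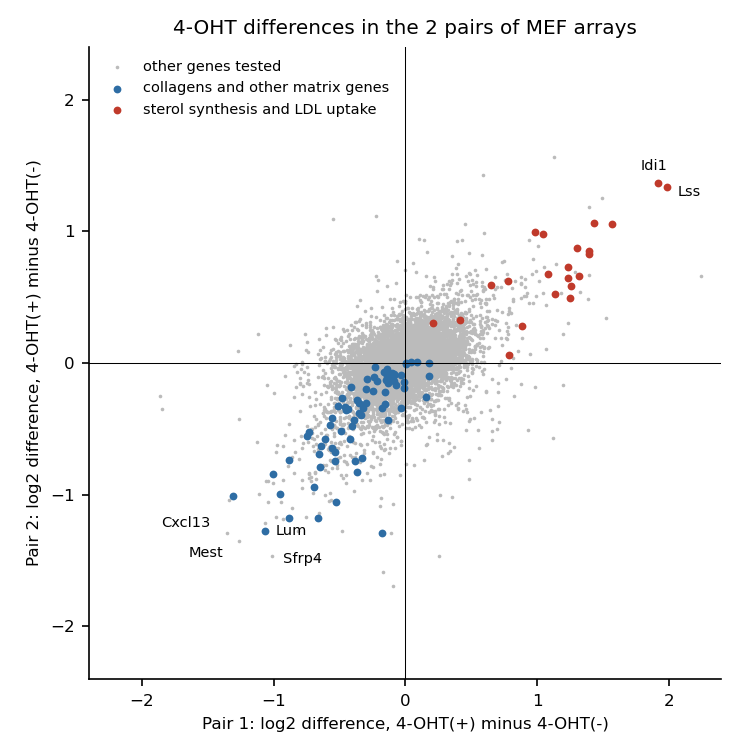
Each point is 1 of 11603 tested genes, placed by its log2 difference, 4-OHT(+) minus 4-OHT(-), in pair 1 (horizontal axis) and pair 2 (vertical axis). Genes of sterol synthesis (red) lie to the upper right, with all 22 above 0 in both pairs, and most collagens and other matrix genes (blue) lie to the lower left.

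The cells carried fibroblast markers, as labelled. Of 18 fibroblast markers, 16 lay above the array median (a log2 intensity of 7.93) on all 4 arrays, and Tcf21 lay below it. Their mean log2 intensity was 11.73 and 11.74 in 4-OHT(+) MEFs and 12.00 and 12.01 in 4-OHT(-) MEFs, and 3 of the 17 tested (Col3a1, Fap and Lum) fell. Of 14 pluripotency markers, 11 lay below the median on all 4 arrays, Nanog and Sox2 among them. Their mean was 7.12 on both 4-OHT(+) arrays and 7.20 and 7.24 on the 4-OHT(-) arrays, against 12.29 in the #45 line. Epithelial markers averaged 7.23 and 7.40 with 4-OHT and 7.34 and 7.38 without, with 14 of 20 (Epcam and Cdh1 among them) below the median on every array. Endothelial markers averaged 7.97 and 7.94 with 4-OHT and 7.97 and 7.95 without, and neural markers 8.17 and 7.98 with 4-OHT and 8.15 and 8.06 without.

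Markers of myeloid cells set the pairs apart. The mean over 19 myeloid markers was 9.96 (pair 1) and 7.83 (pair 2) in 4-OHT(+) MEFs and 10.29 (pair 1) and 8.0 (pair 2) in 4-OHT(-) MEFs. Pair 1 was thus the higher in both groups, and within each pair the 4-OHT(+) array was the lower. In pair 1 the highest single marker reached 13.26 with 4-OHT and 13.20 without. C1qb, a complement subunit made by macrophages, fell by 0.63 ± 0.08 on the log2 scale and was the only myeloid marker of 18 tested to pass. The part of these cells in the differences below was not tested. In whole cultures, fewer cells of a type and less RNA per cell cannot be told apart.

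Every measured step of cholesterol synthesis was higher with 4-OHT. The list of sterol synthesis and LDL uptake held 28 names, 22 of them on the array under a single symbol, and all 22 were tested. In both pairs 22 of 22 were higher, 13 rose by the test (against 0.465% of all genes) and 0 fell. The median log2 difference was 0.96, with 1.24 in pair 1 and 0.67 in pair 2, beside a median of 0.00 over all genes tested. The groups did not overlap for 21 of the 22 (against 17.9% of all genes), and the exception was Fabp5, a fatty acid carrier, with 12.15 and 10.29 in 4-OHT(+) MEFs and 11.36 and 10.23 in 4-OHT(-) MEFs.

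The mevalonate steps turn acetyl-CoA into isoprenoid units. Hmgcs1, the synthase that makes the precursor of mevalonate, had log2 intensities of 12.58 and 12.17 in 4-OHT(+) MEFs and 11.26 and 11.52 in 4-OHT(-) MEFs. Its difference of 0.99 ± 0.16 (SE, n = 2 pairs) did not pass (limma adjusted p = 0.0695). Mvk and Pmvk, the kinases that phosphorylate mevalonate, differed by 0.83 and 0.87 and did not pass either. Mvd, the decarboxylase that follows, had 11.25 and 10.55 in 4-OHT(+) MEFs and 10.26 and 9.55 in 4-OHT(-) MEFs. Pair 1 lay above pair 2 in both groups, and Mvd rose by 0.99 ± 0.07, by nearly the same step in each pair.

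Idi1, the isomerase that makes the reactive isoprenoid unit, had 12.67 and 12.21 with 4-OHT and 10.76 and 10.85 without. Both treated arrays stood well above both untreated ones, and the rise was 1.64 ± 0.14 (adjusted p = 0.0303). Fdps, which joins these units to farnesyl diphosphate, had 13.13 and 12.27 with 4-OHT and 11.89 and 11.63 without. The groups did not overlap, yet the difference of 0.94 ± 0.15 did not pass (adjusted p = 0.0641), and it was larger in pair 1 than in pair 2.

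The committed steps run through squalene to lanosterol. Fdft1, squalene synthase, had 13.14 and 13.11 with 4-OHT and 12.49 and 12.52 without, and rose by 0.62 ± 0.07. Sqle, squalene epoxidase, had 12.45 and 12.10 with 4-OHT and 11.37 and 11.42 without, and rose by 0.88 ± 0.12. Lss, lanosterol synthase, had 12.71 and 12.28 with 4-OHT and 10.72 and 10.95 without. It showed the largest rise of any tested gene, 1.66 ± 0.16 or 3.16-fold (adjusted p = 0.0345).

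The enzymes that turn lanosterol into cholesterol moved alike. Cyp51, the lanosterol demethylase, had 12.08 and 11.66 with 4-OHT and 10.77 and 10.78 without, a rise of 1.09 ± 0.12. Tm7sf2, a sterol reductase, had 10.90 and 10.17 with 4-OHT and 9.33 and 9.11 without, a rise of 1.31 ± 0.13. Msmo1, the methylsterol monooxygenase, had 12.95 and 12.78 with 4-OHT and 11.91 and 11.80 without. The groups did not overlap, replicates lay close together, and Msmo1 rose by 1.01 ± 0.07 (adjusted p = 0.0297). Nsdhl and Hsd17b7, which act on the same methyl group, rose by 0.98 ± 0.13 and 1.12 ± 0.14. Sc5d, the lathosterol desaturase, rose by 0.70 ± 0.08. Ebp, the isomerase before it, differed by 0.58 ± 0.15, and Dhcr7, the last reductase of the route, by 0.92 ± 0.16, and neither passed (adjusted p = 0.156 and 0.083).

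Genes that control or carry sterol were also higher. Insig1, which holds SREBP proteins in the endoplasmic reticulum and is itself one of their targets, had 13.06 and 12.71 with 4-OHT and 11.63 and 11.65 without, and rose by 1.25 ± 0.11 (adjusted p = 0.0303). Stard4, a cytosolic sterol carrier, had 10.38 and 9.73 with 4-OHT and 8.98 and 8.90 without, and rose by 1.11 ± 0.14. Srebf2, which encodes SREBP2, differed by 0.37 ± 0.08 and Tmem97 by 0.26 ± 0.08, and neither passed.

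**Figure D2:**
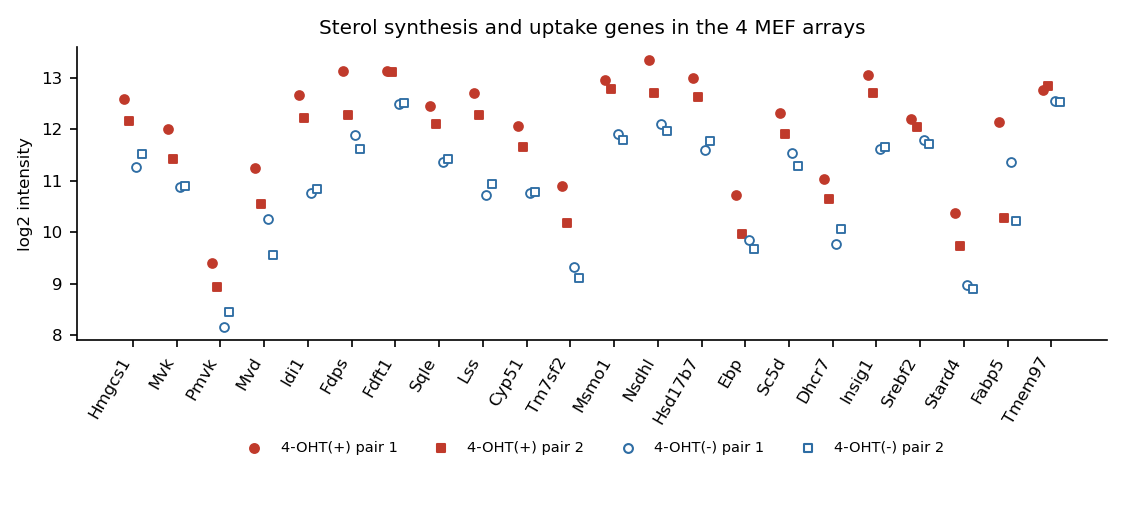
Log2 intensities of the 22 genes of the sterol list in each of the 4 MEF arrays, enzymes first and then regulators and carriers, with filled symbols for 4-OHT(+), open symbols for 4-OHT(-), circles for pair 1 and squares for pair 2. In 21 of the 22 both 4-OHT(+) points lie above both 4-OHT(-) points, and Fabp5 is the exception.

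Because these genes moved together and share known promoter elements, their promoters were read for the letters CCAAT on either strand (ATTGG on the printed one). The stretch searched was 250 bases before to 50 after each gene's start, from RefSeq (GRCm38.p6). Of the 22 sterol genes, 17 had a promoter entry and 17 of these 17 held the motif, against 42.5% of the 9311 tested genes with an entry and 41.1% of all 27025 genes. It was present in 9 of 14 fatty acid genes (64.3%), 13 of 26 other matrix genes (50%), 10 of 24 collagen genes (41.7%), 24 of 41 genes that rose (58.5%) and 22 of 60 that fell (36.7%). The sterol element TCACNCCAC, searched on both strands, was found in 1 of the 17 (Hmgcs1) and in 1.44% of all genes. It was also present in 1 of 41 genes that rose (Aldoc) and in 1 of 60 that fell (Srpx2). Such matches describe letters in these windows and nothing else.

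The promoters of the genes with the largest rises of the mevalonate route (Idi1) and of the squalene steps (Lss), and of the least variable gene after lanosterol (Msmo1), are printed in the direction of the gene. Capitals mark CCAAT or its reverse complement, which starts 45 and 14 bases before the start of Idi1, 62 before that of Lss, and 160, 96 and 55 before that of Msmo1. Their positions are chr13:8885356-8885655 on the plus strand for Idi1, chr10:76531355-76531654 on the plus strand for Lss and chr8:64733529-64733828 on the minus strand for Msmo1.
Idi1: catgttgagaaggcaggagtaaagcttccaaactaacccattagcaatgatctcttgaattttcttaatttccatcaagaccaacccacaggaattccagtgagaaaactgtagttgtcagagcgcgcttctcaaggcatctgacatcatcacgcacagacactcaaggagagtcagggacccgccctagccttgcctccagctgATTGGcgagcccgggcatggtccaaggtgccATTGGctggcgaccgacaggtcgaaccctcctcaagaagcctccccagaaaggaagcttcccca
Lss: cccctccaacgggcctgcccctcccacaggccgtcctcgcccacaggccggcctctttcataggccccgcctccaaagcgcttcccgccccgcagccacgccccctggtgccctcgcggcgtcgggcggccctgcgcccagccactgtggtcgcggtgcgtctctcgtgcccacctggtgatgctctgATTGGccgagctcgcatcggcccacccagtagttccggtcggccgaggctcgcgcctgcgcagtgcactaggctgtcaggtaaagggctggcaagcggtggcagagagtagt
Msmo1: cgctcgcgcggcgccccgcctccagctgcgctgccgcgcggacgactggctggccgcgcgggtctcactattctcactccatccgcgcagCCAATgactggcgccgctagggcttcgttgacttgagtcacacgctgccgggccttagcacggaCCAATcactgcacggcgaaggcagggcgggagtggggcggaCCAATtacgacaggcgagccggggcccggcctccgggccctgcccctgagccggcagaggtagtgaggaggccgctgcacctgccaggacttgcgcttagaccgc

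Fatty acid synthesis followed to a smaller extent. Of 19 tested genes of the list, 5 rose (against 0.465% of all genes) and 0 fell. In both pairs 15 were higher and 2 lower (against 33% and 32.0% of all genes), and the median difference was 0.33. Fasn, fatty acid synthase, had 13.28 and 12.97 in 4-OHT(+) MEFs and 12.23 and 12.24 in 4-OHT(-) MEFs, without overlap, and rose by 0.89 ± 0.10. Acly, which supplies cytosolic acetyl-CoA, rose by 0.85 ± 0.10, and Acaca, which carboxylates it, by 0.82 ± 0.10. Elovl6, an elongase, had 12.95 and 12.40 with 4-OHT and 11.81 and 11.64 without, and rose by 0.95 ± 0.11. Fads2, a desaturase, rose by 0.59 ± 0.08.

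Several of their neighbours in the pathway stood apart between the groups and missed the threshold. Scd1, the stearoyl-CoA desaturase, differed by 0.65 ± 0.10 and Fads1 by 0.70 ± 0.11. Acss2, which makes acetyl-CoA from acetate, had 11.63 and 10.15 with 4-OHT and 9.39 and 9.49 without. Its difference was 2.24 in pair 1 and 0.66 in pair 2, and the mean of 1.45 ± 0.35 did not pass (adjusted p = 0.145). Genes of triglyceride assembly were near 0, with 0.05 for Dgat1 and 0.06 for Agpat2. Of 21 genes of cholesterol efflux and lysosomes 0 passed, with 13 higher and 5 lower in both pairs and a median of 0.13. Abca1, the cholesterol exporter, differed by -1.08 (-0.68 in pair 1 and -1.48 in pair 2, adjusted p = 0.0827).

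The other large rises came from genes outside the sterol and fatty acid lists. Slc5a3, the sodium-dependent myo-inositol transporter, had 11.34 and 11.10 with 4-OHT and 9.85 and 9.84 without, and rose by 1.38 ± 0.09. Crct1 had 11.28 and 11.34 with 4-OHT and 10.16 and 9.77 without, a rise of 1.35 ± 0.12. Aldoc, an aldolase of glycolysis, had 9.64 and 9.36 with 4-OHT and 8.25 and 8.18 without, a rise of 1.29 ± 0.09. None of these overlapped between groups. Mcpt8, a serine protease of basophils, did overlap, with 8.59 and 10.12 with 4-OHT and 7.59 and 9.24 without. Its rise of 0.95 ± 0.08 was similar in both pairs, while its level was higher throughout pair 2. Leaving out 1 array gave 0.12 to 1.77. Such fits drop the pairing, so their ranges, here and below, also hold the gap between the pairs.

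Of 30 genes downstream of Atf4 or of endoplasmic reticulum stress, 2 rose, against 0.465% of all genes (Ddit3 by 0.60 ± 0.07 and Slc7a3 by 0.73 ± 0.09), and 18 were higher and 6 lower in both pairs, with a median of 0.12. Of 21 genes of the Nrf2 and xenobiotic response, 2 rose, again against 0.465%: Hmox1, haem oxygenase, by 0.72 ± 0.08, and Gclm, a subunit of glutathione synthesis, by 0.59 ± 0.07, with a list median of 0.21. Among 24 genes of glycolysis and hypoxia 1 rose (Aldoc), 19 were higher in both pairs and the median was 0.16. Of 43 genes of oxidative phosphorylation 0 passed, and the median was -0.03, with Ndufa1 at 0.18 and Ndufc1 at -0.13. Of 29 p53 targets 0 passed, with 15 higher and 8 lower in both pairs and a median of 0.08. Plk2 and Plk3, kinases induced by p53, differed by 0.43 and 0.41 (adjusted p = 0.0935 and 0.0901).

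Collagens were lower with 4-OHT as a class and by small steps. Of 30 tested collagen chains, 5 fell (against 0.810% of all genes) and 0 rose, 29 were lower in both pairs and 0 higher in both. The median was -0.34, and the groups did not overlap for 23 of the 30 (against 14.9% of all genes). Col3a1, which forms type III fibrils, had 10.29 and 10.43 in 4-OHT(+) MEFs and 11.29 and 11.27 in 4-OHT(-) MEFs. Treated and untreated arrays did not overlap, with replicates close together, and Col3a1 fell by 0.92 ± 0.08 (adjusted p = 0.0303). Col14a1, a fibril-associated collagen, fell by 0.81 ± 0.08. Col6a2 and Col6a3, chains of the beaded microfibrils, fell by 0.65 ± 0.08 and 0.59 ± 0.07, and Col8a2 by 0.60 ± 0.08. The chains of type I collagen were among the most abundant and moved less: Col1a1 had 13.20 and 13.10 with 4-OHT and 13.54 and 13.50 without, a difference of -0.37 ± 0.07 (adjusted p = 0.101). Col1a2 also differed by -0.37. The chain with opposite signs in the pairs was Col2a1, of cartilage, with 0.16 in pair 1 and -0.26 in pair 2.

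Of 45 other matrix genes tested, 11 fell (against 0.810% of all genes) and 0 rose. In both pairs 39 were lower and 3 higher (against 32.0% and 33% of all genes), and the median was -0.30. Lum had 10.75 and 10.99 with 4-OHT and 11.81 and 12.26 without, and fell by 1.17 ± 0.09 (adjusted p = 0.0297). Eln, elastin, had 8.48 and 8.49 with 4-OHT and 9.79 and 9.51 without, and fell by 1.16 ± 0.10. Both genes were separated between groups. Fmod, fibromodulin, had 10.83 and 10.79 with 4-OHT and 11.78 and 11.79 without, and fell by 0.97 ± 0.07. Aspn, asporin, had 11.98 and 11.89 with 4-OHT and 12.86 and 13.07 without, and fell by 1.03 ± 0.10.

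The other falls in the list ran from 0.60 to 0.82 log2 units. They were Lama4 (a laminin chain), Nid2 (a basement membrane linker), Fbln1 and the microfibril genes Mfap2, Mfap4 and Mfap5, and Cthrc1. Mfap5 had 11.43 and 9.39 with 4-OHT and 12.08 and 10.18 without, so its groups overlapped although each pair stepped down. In the unpaired fits that leave out 1 array its sign could turn (range -1.74 to 0.30). Of 27 matrix proteases and their inhibitors 0 passed, with 19 lower and 4 higher in both pairs and a median of -0.20. Mmp10, a stromelysin, differed by 0.79 ± 0.11 and Adamts12 by -0.65 ± 0.09, both close to the threshold (adjusted p = 0.0522 for both). The fibroblast markers were lower on average in the same 4-OHT(+) arrays, as given above, and their part in these values was not tested. Col3a1 and Lum belong to that list as well.

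Several of the 15 largest falls belong to no matrix list. Tnmd, the tendon membrane protein tenomodulin, had 8.57 and 9.78 with 4-OHT and 9.91 and 10.82 without, and fell by 1.19 ± 0.10. Abi3bp had 11.01 and 10.45 with 4-OHT and 11.95 and 11.50 without, and fell by 1.00 ± 0.08. Egfl6 had 8.06 and 8.11 with 4-OHT and 9.04 and 9.27 without, a fall of 1.07 ± 0.08. Olfml1 fell by 1.04 ± 0.12, and Serpina3n, a secreted protease inhibitor, by 1.06 ± 0.09.

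Some falls sat on large differences between pairs. Mest, an imprinted gene expressed from the paternal allele, had 10.29 and 11.77 with 4-OHT and 11.55 and 13.12 without. Its groups overlapped, pair 2 being higher throughout, and the fall of 1.31 ± 0.08 was similar in each pair. Cxcl13, a B-cell chemokine, had 6.39 and 8.33 with 4-OHT and 7.74 and 9.62 without, and fell by 1.32 ± 0.07, with overlapping groups and both arrays of pair 1 below the array median. Leaving out 1 array gave a range of -2.09 to -0.52 for Mest and -2.29 to -0.35 for Cxcl13. Cdo1, cysteine dioxygenase, had 9.01 and 9.66 with 4-OHT and 10.05 and 10.71 without, and fell by 1.05 ± 0.07.

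IGF binding proteins hold IGFs in the extracellular space. Of 15 tested genes of the IGF axis 4 fell (against 0.810% of all genes) and 1 rose (against 0.465%), with a list median of -0.14. The 4 that fell were binding proteins, and the binding proteins Igfbp6 and Igfbp7, at -0.35 and -0.08, did not pass. Igfbp3 had 10.93 and 10.65 with 4-OHT and 11.99 and 11.87 without, did not overlap, and fell by 1.14 ± 0.08. Igfbp5 had 10.00 and 11.71 with 4-OHT and 11.10 and 12.70 without, overlapped because pair 2 was higher, and fell by 1.05 ± 0.08 (-1.91 to -0.19 when 1 array was left out). Igfbp4 fell by 0.65 ± 0.07 and Igfbp2 by 0.64 ± 0.07, the second with a range of -1.34 to 0.07 when 1 array was left out. Stc2, which restrains a protease of IGF binding proteins, rose by 0.57 ± 0.07. The ligand genes did not pass: Igf1 differed by -0.67 ± 0.11 (adjusted p = 0.0666) and Igf2 by -0.04. Igfbp4 was also the 1 call among 8 oestrogen-responsive genes tested (against 0.810% of all genes). Of these 8, groups did not overlap for 4 downwards and 1 upwards (against 14.9% and 17.9% of all genes).

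**Figure D3:**
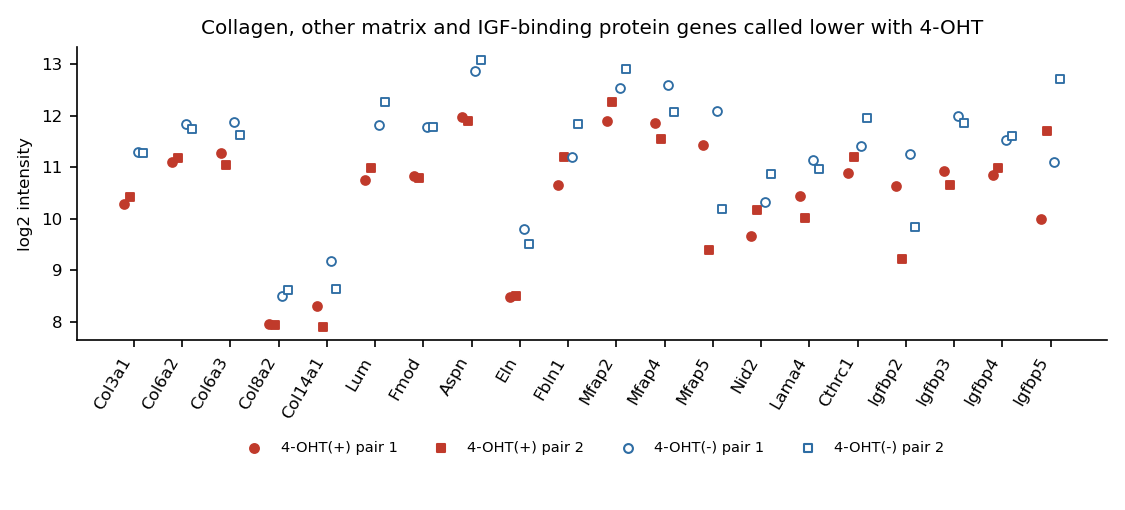
Log2 intensities in each of the 4 MEF arrays of the collagen, other matrix and IGF-binding protein genes that fell, with filled symbols for 4-OHT(+), open symbols for 4-OHT(-), circles for pair 1 and squares for pair 2. In every gene shown the 4-OHT(+) array of a pair lies below the 4-OHT(-) array of that pair.

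Smooth muscle genes gave 3 of the falls. Cnn1 (calponin), Actg2 (enteric actin) and Myh11 (smooth muscle myosin) fell by 0.76 ± 0.08, 0.79 ± 0.08 and 0.61 ± 0.08. The other members among 27 contractile and YAP-responsive genes did not pass, and the list median was -0.06. Of 8 skeletal muscle genes tested 1 fell: Myl1, by 0.68 ± 0.07, at low levels that reached 8.26 at most, with a range of -1.68 to 0.32 when 1 array was left out. Of 16 bone and cartilage genes tested 2 fell, Prg4 (lubricin) by 0.97 ± 0.08, with groups that overlapped and a range of -1.77 to -0.17 when 1 array was left out, and Mef2c by 0.62 ± 0.08. Of 30 chemokines and cytokines 1 rose and 2 fell (Cxcl13 and Cxcl14). Tslp, an epithelial cytokine, had 10.93 and 9.30 with 4-OHT and 9.96 and 8.51 without, so its groups overlapped. It rose by 0.88 ± 0.08, with a range of 0.064 to 1.70 when 1 array was left out.

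Of the Wnt genes that passed the test, none was higher with 4-OHT, while several that did not pass had values above 0. The gene Apc itself had 10.79 and 10.62 in 4-OHT(+) MEFs and 10.60 and 10.54 in 4-OHT(-) MEFs, a difference of 0.13 ± 0.08 (adjusted p = 0.446). Its probe set reads the whole transcript, so this value does not check for the loss of an exon. Ctnnb1, which encodes beta-catenin, had 12.91 and 12.92 with 4-OHT and 12.80 and 12.87 without, a difference of 0.08 ± 0.07 (adjusted p = 0.621). Axin2, the negative feedback gene most often used to read Wnt signalling, had 8.53 and 8.81 with 4-OHT and 8.55 and 8.63 without. Its groups overlapped, and the difference of 0.08 ± 0.08 did not pass (adjusted p = 0.674).

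Of 25 tested Wnt targets and feedback genes, 0 rose and 6 fell (against 0.810% of all genes). In both pairs 14 were lower and 6 higher (against 32.0% and 33% of all genes), and the median was -0.15. Nkd1, a feedback inhibitor, had 9.29 and 9.11 with 4-OHT and 9.91 and 9.90 without, did not overlap, and fell by 0.70 ± 0.08 (adjusted p = 0.0432). Lgr5, a receptor of R-spondins, had 8.84 and 8.09 with 4-OHT and 9.63 and 8.98 without, and fell by 0.84 ± 0.08 (adjusted p = 0.0328). The other falls were of secreted proteins. This list, called Wnt targets for short below, thus holds antagonists and a matrix protein beside feedback genes. Sfrp4, a Wnt-binding antagonist, had 8.12 and 8.69 with 4-OHT and 9.13 and 10.16 without, and fell by 1.24 ± 0.12. Sfrp2, of the same family, had 10.66 and 11.10 with 4-OHT and 11.66 and 12.01 without, and fell by 0.96 ± 0.08. Dkk3 fell by 0.62 ± 0.07 and Tgfbi, a matrix adhesion protein, by 0.83 ± 0.08. The groups of Tgfbi overlapped, and its difference ran from -1.47 to -0.19 when 1 array was left out.

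Other targets and feedback genes did not pass. Znrf3 and Rnf43, ligases that clear Wnt receptors, each differed by 0.26, Ccnd1 by 0.17 and Lef1 by 0.07. Notum, Sp5 and Dkk1 were below the array median on all 4 arrays and were not tested. Among 46 Wnt pathway components 2 fell, the receptor Ror1 by 0.58 ± 0.08 and the ligand Rspo2 by 0.60 ± 0.08, and the median was -0.10. The groups of Rspo2 overlapped, and its difference ran from -1.17 to -0.024 when 1 array was left out. Among 31 genes of BMP and TGF-beta signalling 2 fell, Gdf10 by 0.98 ± 0.09 and Tgfb2 by 0.76 ± 0.08, with a list median of -0.11. The groups of Tgfb2 overlapped (-1.22 to -0.30 when 1 array was left out).

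**Figure D4:**
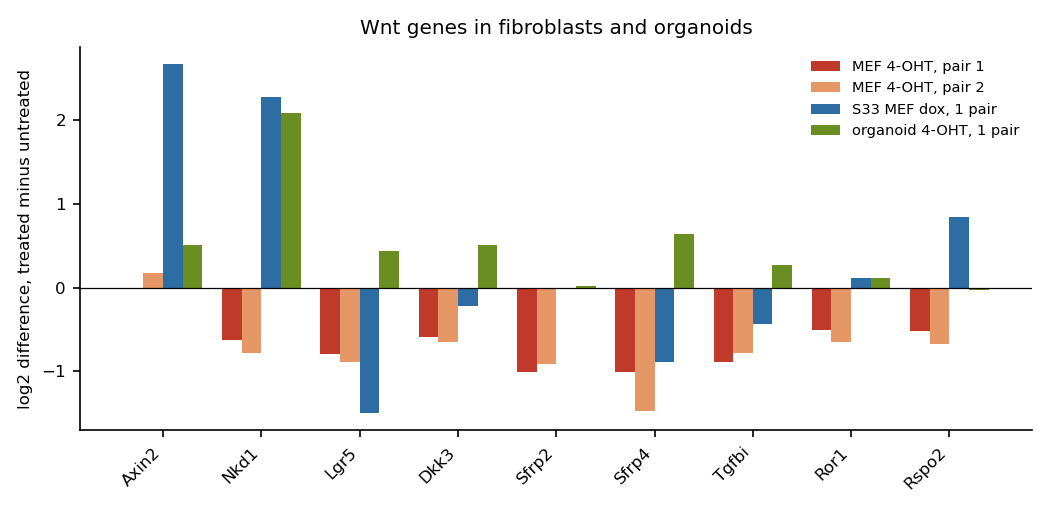
Log2 differences of Axin2 and of the Wnt genes that fell: 4-OHT(+) minus 4-OHT(-) in each MEF pair, dox+ minus dox- in S33 MEFs and 4-OHT(+) minus 4-OHT(-) in organoids. Axin2 lies near 0 in the MEF pairs, at 0.50 in organoids and at 2.67 in S33 MEFs.

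The series holds other treated cells to set beside these. Small intestinal organoids of the same #45 line were grown with 1 uM 4-OHT for 2 days or without it, with 1 array each. S33 MEFs were grown with or without doxycycline (dox), also with 1 array each. The labels do not say what S33 carries, and the series text names induction of mutant beta-catenin in MEFs among its subjects. Differences between these responses were tested in 1 fit of 8 arrays, in which the single arrays of organoids and S33 MEFs were assumed to vary like the 4-OHT MEFs. The agents and doses differ. Each contrast, here and below, contains the MEF difference with 4-OHT. Counts of differing responses in lists that moved in 4-OHT MEFs are thus a description and no separate support.

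Axin2 was 11.27 in S33 MEFs with dox against 8.60 without, and 11.81 in organoids with 4-OHT against 11.30 without. Its response in 4-OHT MEFs was smaller than in S33 MEFs, by 2.59 ± 0.15 log2 units (adjusted p = 0.00205), while the difference from organoids was -0.43 ± 0.15 (adjusted p = 0.131). Nkd1 was 2.28 log2 units higher with dox in S33 MEFs and 2.08 higher with 4-OHT in organoids, and it fell in 4-OHT MEFs. The 4-OHT MEF response differed from S33 by -2.98 ± 0.14 (adjusted p = 0.00178) and from organoids by -2.79 ± 0.14 (adjusted p = 0.00442). Lgr5 had a log2 difference of -1.497 with dox in S33 MEFs and of 0.44 with 4-OHT in organoids. Of the 25 genes in the list of Wnt targets and feedback, 16 differed in response between 4-OHT MEFs and S33 MEFs (against 13.0% of 13176 genes). Between 4-OHT MEFs and organoids 9 differed (against 10.2%). These shares, here and below, are over all 13176 genes of that fit, while list members are counted among the 11603 genes tested in MEFs. Of those 11603, 1568 differed from S33 MEFs and 1078 from organoids. The list's median was -0.15 in 4-OHT MEFs, 0.27 in organoids and 0.44 in S33 MEFs.

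The sterol genes moved in opposite directions in the MEF systems. All 22 were higher with 4-OHT and all 22 lower with dox in S33 MEFs, with a median of 0.96 against -1.29. By the test 22 of 22 responses differed (against 13.0% of all genes). Idi1 differed by 4.39 ± 0.24 log2 units between these responses (adjusted p = 0.00178) and Insig1 by 3.11 ± 0.19. In organoids with 4-OHT the same genes had a median of -0.21, and 19 of 22 were lower. There 14 responses differed from those of 4-OHT MEFs (against 10.2% of all genes). Idi1 was at 0.00 and Lss at -0.28 there, so the contrast for Idi1 is nearly the MEF rise itself. Fatty acid genes had medians of 0.33 in 4-OHT MEFs, 0.00 in organoids and -0.25 in S33 MEFs. Of 19 responses 2 differed from organoids, close to the share of all genes (10.2%), and 8 from S33 MEFs (against 13.0%).

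Outside the collagens, the matrix list had a median below 0 in both MEF systems. These other matrix genes had medians of -0.30 in 4-OHT MEFs and -0.29 in S33 MEFs, and 0.05 in organoids, where fibroblast markers averaged 7.43 with 4-OHT and 7.39 without. Of these 45 responses 16 differed from S33 MEFs (against 13.0% of all genes) and 19 from organoids (against 10.2%). Eln was 1.68 lower with dox in S33 MEFs (log2 difference -1.68), a response not distinguished from that to 4-OHT (difference 0.52 ± 0.17, adjusted p = 0.119). Lum was lower with dox by more than with 4-OHT (log2 difference -2.32, and the difference between the responses passed with a limma adjusted p of 0.0112). The median of collagens was -0.34 in 4-OHT MEFs, 0.10 in S33 MEFs and -0.41 in organoids, and 5 of 30 responses differed from S33 MEFs and 2 from organoids, shares close to or below those of all genes. Igfbp2 and Prg4 fell with 4-OHT and were 3.18 and 2.49 higher with dox in S33 MEFs.

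Of the 148 genes called in 4-OHT MEFs, 97 differed in response from S33 MEFs and 97 from organoids. Those counts contain the contrast by which the 148 were called. Of the 54 that rose, 22 were higher and 32 lower with dox in S33 MEFs, and 21 were higher and 32 lower with 4-OHT in organoids. Of the 94 that fell, 32 were higher and 62 lower with dox in S33 MEFs, and 55 were higher and 39 lower in organoids.

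**Figure D5:**
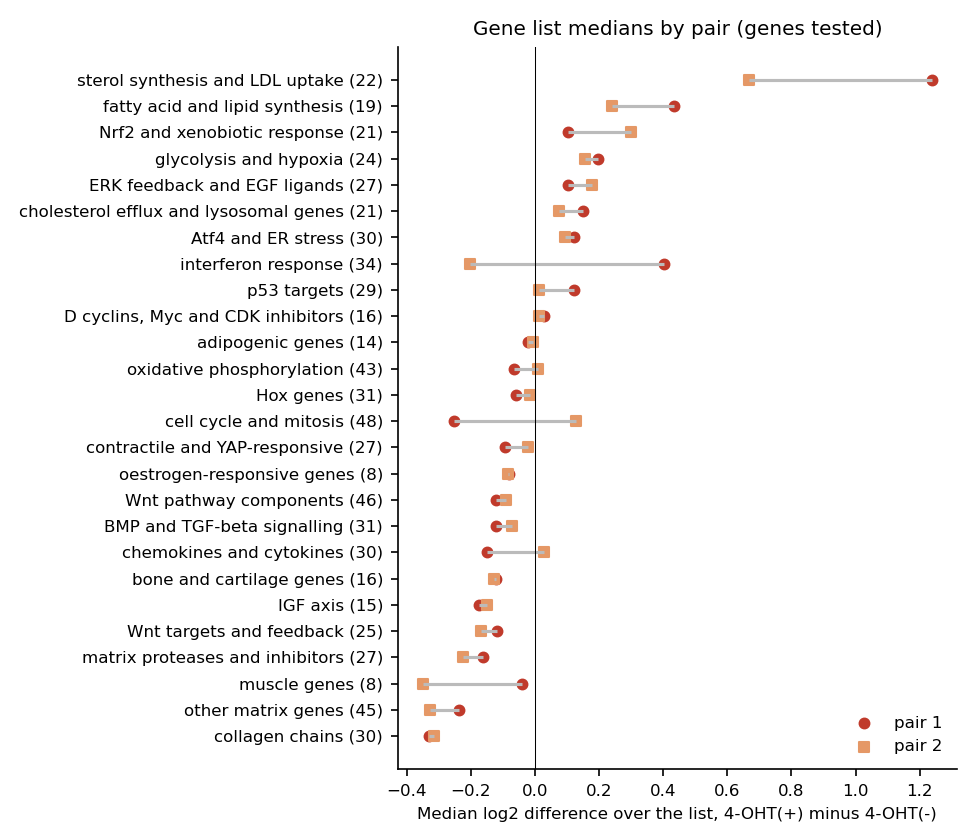
Median log2 difference of each gene list for 4-OHT(+) minus 4-OHT(-) in MEF pair 1 and pair 2. Sterol synthesis stands highest in both pairs (1.24 and 0.67), and collagens and other matrix genes are below 0 in both.

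The pairs did not move alike in every list. Of 48 tested genes of cell cycle and mitosis, 43 did not share a sign between the pairs (against 4057 of all 11603 genes tested). The list medians were -0.25 in pair 1 and 0.13 in pair 2, and 0 passed. Ccnb2, cyclin B2, had 10.35 and 11.37 with 4-OHT and 11.11 and 11.28 without, so that the 4-OHT(+) array of pair 1 was the low one. In S33 MEFs with dox 46 of the 48 were lower. Of 34 interferon response genes 26 did not share a sign (against the same 4057 of 11603), with medians of 0.40 in pair 1 and -0.20 in pair 2, and 0 passed. Ifit3, an interferon-induced antiviral gene, had 12.37 and 13.26 with 4-OHT and 11.38 and 13.44 without, the 4-OHT(-) array of pair 1 being the lowest. Mx1 had 7.20 and 9.28 with 4-OHT and 6.94 and 10.75 without, and pair 2 was the higher in both groups.

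Other lists gave few or no calls. Among 27 genes of ERK feedback and EGF ligands, Dusp4, a phosphatase induced by ERK, rose by 0.70 ± 0.09, and the median was 0.13. Calls were 0 among 14 adipogenic genes, where Lpl, lipoprotein lipase, came closest with -0.61 ± 0.09 (adjusted p = 0.0522). Calls were also 0 among 31 Hox genes, with Hoxc5 at -0.36 and Hoxb9 at 0.27. The same held for 16 D cyclins, Myc and CDK inhibitors, with Cdkn1c at -0.56, Cdkn2b at 0.48 and Myc at 0.25. Among the sex-linked genes 4 were tested and 0 passed.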

How the data were processed

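RNA was hybridised to single-colour Affymetrix arrays after a whole-transcript biotin labelling, per the labels' protocols. The authors deposited linear intensities for 28856 probe sets, by steps not given in the sources used here. As the design had assumed values comparable on a log2 scale, log2 was taken here. Deposited medians ran from 142 to 317 over all arrays and from 248 to 273 over the MEF arrays. The lowest was that of the organoid array with 4-OHT (142, against 218 without). Identical deposited values recurred in 19.2% of probe sets between the arrays of pair 2 and in 0 between those of pair 1, so all 18 arrays were quantile normalized together.

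Of the probe sets, 3 lacked values, 21789 had 1 gene symbol, 1621 several and 5443 none, and the last kinds are not named. Entrez identifiers matched RefSeq (GRCm38.p6) for 21698, with 0 changes of symbol. A gene was read from its probe set of highest mean (19938 genes). Genes above the array median (percentile 50) on at least 1 of the 4 MEF arrays entered a linear model (limma 3.58.1, R 4.3.3, empirical Bayes, pair as a block, two-sided, Benjamini-Hochberg at 0.05 over all genes tested). Residual degrees of freedom were 1, with 4.22 borrowed across genes. The pairing comes from the number in the titles: deviations of same-numbered arrays from their group means correlated at 0.855 across genes, which with 2 pairs is a description of the arrays and not of how they were grown. An exact permutation test of 2 against 2 cannot go below p = 0.333. Errors are standard errors.

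Differences from the organoid and S33 MEF responses were fitted over 8 arrays with a block per pair (13176 genes). In all, 33 gene lists were used, with 925 entries of which 862 were on the array, and some share genes. The comparison, its lists and the named genes were chosen with earlier results of these data known. Named were Apc, Ctnnb1, Axin2, the 15 largest rises and 15 largest falls among genes that passed and moved alike in both pairs, and list members that passed, or otherwise up to 4 with the largest smaller difference of the pairs. Other members are named by role. On simulated data with the pair block, log2 changes of 0.5 were recovered for 41 of 67 genes and of 1 for 66 of 67, with 16 false calls. Without the block 0 of either were recovered, and 47 of 66 genes with a log2 change of 2 were, with 0 false calls. The simulated arrays were given a pair effect taken from these same arrays. The simulation thus cannot say whether same-numbered arrays are pairs. The number of arrays limits precision.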

Additional observations from a re-analysis of the deposited data

Results flagged for a closer look

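The response to 4-OHT was compared between MEFs and organoids of the same #45 line, by a test of the difference itself in 1 limma fit. It differed for 1349 of 13176 genes (10.2%), being higher in MEFs for 534 and lower for 815. Organoids had 1 array with and 1 without 4-OHT, which were assumed to vary like the MEF pairs. The doses differed (2 ug/ml in MEFs, 1 uM in organoids). The organoid array with 4-OHT had the lowest deposited median of the series (142, against 218 without). The count of differing genes depended on the joint normalization, as given below. The values that follow are MEF minus organoid log2 differences, with adjusted p from 0.00442 to 0.0435.

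Of the 33 genes named by size of change or always, 26 differed. Since 30 of them were chosen for their large MEF differences, which are also part of this contrast, that count is a description and no support. The Wnt genes named besides were likewise chosen because they fell in MEFs. Among the sterol genes the MEF response exceeded that of organoids by 1.944 for Lss, 1.935 for Mvd, 1.729 for Insig1, 1.639 for Idi1, 1.497 for Stard4, 1.491 for Tm7sf2, 1.452 for Hsd17b7, 1.353 for Cyp51, 1.252 for Msmo1 and 1.115 for Nsdhl. The other genes that rose more in MEFs were Slc5a3 (1.626), Aldoc (1.601) and Mcpt8 (1.337). Among Wnt genes the difference was -2.787 for Nkd1, -1.883 for Sfrp4, -1.274 for Lgr5, -1.128 for Dkk3, -1.10 for Tgfbi and -0.980 for Sfrp2. Matrix and secreted proteins gave -2.034 for Cxcl13, -1.89 for Egfl6, -1.37 for Tnmd, -1.365 for Igfbp3, -1.335 for Olfml1, -1.122 for Abi3bp, -1.07 for Lum, -0.982 for Aspn, -0.894 for Gdf10 and -0.839 for Eln. Cdo1 and Mest gave -2.243 and -1.432. Some of these genes lay below the array median (7.93) on both organoid arrays: Lum, Aspn, Abi3bp, Tnmd, Olfml1, Egfl6, Gdf10, Sfrp4, Mcpt8 and Mest. Lum, for example, had 5.02 with 4-OHT and 5.12 without in organoids. For genes at such levels the contrast says little about a response of organoids to 4-OHT.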

How the results depend on the processing

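The counts of calls depended on the settings, and the directions of the called genes did not, where 4 arrays were used. Without the block, with an intensity trend or with another filter, the differences are those of the main fit. Only the other normalizations, and reading a gene by the median of its probe sets, could thus turn a direction. All 148 called genes kept their direction under every setting with 4 arrays that tested them (140 were tested when the mean over the arrays was the filter), and 140 to 145 did when 1 array was left out. The pairing decides the calls: with no replicate block 0 genes were higher and 0 lower, also in every gene list, with 519 at an unadjusted p under 0.05 and a smallest adjusted p of 0.835. Leaving out 1 array in turn, in a fit without the block in which the lone array is assumed to vary like the other group, gave 0 calls overall and in every list (as the fit without the block did with all 4 arrays, so this adds nothing to it), with 206 to 424 genes at an unadjusted p under 0.05. List medians then ran from 0.68 to 1.25 for sterol genes, from 0.29 to 0.39 for fatty acid genes, from -0.32 to -0.15 for other matrix genes, from -0.40 to -0.24 for collagens, from -0.22 to -0.12 for the IGF axis and from -0.21 to -0.14 for Wnt targets. Among the 79 named genes, differences changed sign for Axin2 (-0.062 to 0.22), C1qb (-2.03 to 0.77), Igfbp2 (-1.34 to 0.074), Mfap5 (-1.74 to 0.30) and Myl1 (-1.68 to 0.32). Others of the 148 called genes, not named here, turned as well.

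As deposited, without joint normalization, 128 genes were higher and 238 lower, with 9 fatty acid genes higher, 10 collagens lower, medians of -0.39 for collagens and -0.21 for Wnt targets, and 3996 genes whose response differed from organoids. Quantile normalization of the 4 MEF arrays alone gave 13 higher and 33 lower, with 5 sterol and 0 fatty acid genes higher, and 4 other matrix, 2 collagen and 2 IGF genes lower. Centring on medians gave 79 higher and 81 lower, with medians of -0.32 for collagens and -0.079 for the IGF axis, and moved the median of all genes to 0.06. With no filter (19938 genes), 10 were higher and 21 lower, with 5 sterol and 0 fatty acid genes higher, and 4 other matrix, 1 collagen, 2 IGF and 2 Wnt genes lower, and medians of -0.24, -0.11 and -0.083 for collagens, the IGF axis and Wnt targets. The mean filter gave a collagen median of -0.37 and 73 higher and 118 lower. An intensity trend gave 172 higher and 225 lower, with 9 fatty acid genes higher, 19 other matrix and 14 collagen genes lower. The causes of these shifts were not tested. Of 946 values for 79 named genes under other settings, 463 kept both direction and side of the threshold. Another 474 kept direction and no longer passed, 0 passed anew and 9 turned sign. The fits without the block, in which 0 genes passed, gave a part of the 474 by that alone.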

Other observations

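Some genes that passed belong to no gene list and were picked after their values were seen. Tfrc, the transferrin receptor, had 9.96 and 9.58 in 4-OHT(+) MEFs and 9.45 and 8.98 in 4-OHT(-) MEFs, and rose by 0.55 ± 0.08 (SE, n = 2 pairs, limma with the pair as a block). Slc25a37, the mitochondrial iron importer, had 10.69 and 11.13 with 4-OHT and 10.08 and 10.42 without, and rose by 0.66 ± 0.08. Lrp8, a receptor of the LDL receptor family, had 10.93 and 10.30 with 4-OHT and 9.99 and 9.37 without, and rose by 0.94 ± 0.07. Pank1, a kinase of coenzyme A synthesis, rose by 0.74 ± 0.09, and Gadd45a, a stress-induced gene, by 0.69 ± 0.08.

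Gpc3, a cell-surface proteoglycan that restrains growth, had 10.78 and 11.87 with 4-OHT and 11.45 and 12.53 without, and fell by 0.66 ± 0.07, on levels that were higher in pair 2. Ptn, the growth factor pleiotrophin, had 11.46 and 12.17 with 4-OHT and 12.38 and 12.80 without, and fell by 0.78 ± 0.10. Its log2 difference with dox in S33 MEFs was -3.20. Osr2 and Meox2, transcription factors of embryonic mesenchyme, fell by 0.67 ± 0.07 and 0.61 ± 0.07. Tmem119 had 10.82 and 10.91 with 4-OHT and 11.67 and 11.75 without, and fell by 0.84 ± 0.07.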
